A study of Mus musculus with 12 samples.

Results

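The interval from Fli1 to the Ets1 promoter was examined as 286 windows of 10 kb, stepping by 1 kb, on mouse chromosome 9 (mm10), from 32403001 to 32698000. They were taken by position from the contact table of the Ets1 promoter, which lists 8207 windows, out of 17305 in the 3 tables of the series. The interval ends where the viewpoint window, 32698001 to 32708000, begins. The assay, 4C-seq, reads which DNA fragments had been ligated to a single bait, the viewpoint, after fixed chromatin was digested, and so counts contacts of that bait along the chromosome. The libraries were 2 of embryonic stem (ES) cells and 2 of mouse embryonic fibroblasts (MEFs), fixed with 1% formaldehyde. The ES cells were of the V6.5 line, kept in 2i, a medium with a pair of kinase inhibitors that holds ES cells in a naive state. The MEFs came from E13.5 embryos (E, embryonic day) and grew in DMEM. They were heterozygous for an Oct4-GFP reporter, the OKSM cassette of reprogramming factors and the rtTA3 activator that switches it on with doxycycline, and their labels name no doxycycline. ES cells and MEFs thus differ in genotype and medium as well as in cell type. No RNA was measured in these libraries, so the labelled cell types could not be checked against markers.

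Each value is a number of counts per 1000 of its library's total. The ES libraries totalled 70629 (replicate 1) and 206874 (replicate 2) and the MEF libraries 13629 and 29638, so that in this order 1 count is worth 0.0142, 0.00483, 0.0734 and 0.0337 per 1000. No source says whether the replicates are separate cultures, and p-values therefore reflect only how far libraries differ, which may be technical. Differences are ES minus MEF in log2(value + 1), so that changes of low values are understated. They were tested with limma over all 1051 windows of the table that reached 1 per 1000 in 2 or more libraries, and called at a Benjamini-Hochberg adjusted p under 0.05. All 286 windows of the interval passed that filter. Neighbouring windows share most of their sequence and are not independent.

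Ets1 and Fli1 encode transcription factors of the ETS family, which bind DNA through a shared winged-helix domain, and they lie side by side in the genome as a product of an old duplication. In mouse they are transcribed away from each other. Both are known for roles in blood and endothelial cells, Ets1 above all in lymphocytes and Fli1 in megakaryocytes. Promoters meet distant elements by looping within chromosome domains, and contact frequency generally falls with distance from a viewpoint.

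The interval overlapped 6 annotated genes. Farthest out was the long noncoding RNA gene Gm31755 (32370127 to 32411753), which reaches into its edge. Fli1 (32422204 to 32543432) ends 154.6 kb from the viewpoint window and contains the small nuclear RNA gene Gm22060 (32446822 to 32446928). A stretch of 51.1 kb without a gene separates Fli1 from the long noncoding RNA gene Gm31871 (32594496 to 32607083). Another, Gm31928, lies at 32630517 to 32632787. The last 61.8 kb of the interval lie in Ets1 itself, annotated from 32636241 to 32757820, with the viewpoint window inside the gene rather than at its outer end.

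The 250 bases before the annotated starts of Gm31871 and Gm31928 are shown because the strongest difference of the interval lies over the first of these starts, and the second belongs to the one other long noncoding RNA gene on the way to Ets1. They are the RefSeq sequences of build GRCm38.p6, the assembly that mm10 names, both on the plus strand, at chr9:32594246-32594495 and chr9:32630267-32630516. Capitals mark GATC, the site of DpnII, which cut the chromatin first, and GTAC, the site of Csp6I, used for the second cut.
Gm31871: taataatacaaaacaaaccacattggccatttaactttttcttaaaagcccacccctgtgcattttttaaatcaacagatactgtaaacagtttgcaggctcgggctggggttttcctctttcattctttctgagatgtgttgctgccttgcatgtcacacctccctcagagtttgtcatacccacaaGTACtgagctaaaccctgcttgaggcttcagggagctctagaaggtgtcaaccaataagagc
Gm31928: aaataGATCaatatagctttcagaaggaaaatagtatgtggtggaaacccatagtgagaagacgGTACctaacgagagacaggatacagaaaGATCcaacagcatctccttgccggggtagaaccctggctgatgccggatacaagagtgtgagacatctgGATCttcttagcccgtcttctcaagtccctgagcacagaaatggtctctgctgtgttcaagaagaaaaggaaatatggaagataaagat
The Gm31871 sequence held 0 GATC and 1 GTAC, and the Gm31928 sequence held 3 and 1. Of 32851 mouse promoters of the same length, 41.9% held GATC and 31.5% held GTAC. A missing match says only that these letters are absent from this window. Neither sequence held CCGGAA, a core bound by ETS factors (12.0% of promoters), or GGGTGTGG, a site of KLF factors (3.20%), on either strand. Both were poorer in G and C than most promoters, at 43.2% and 44.0% against a median of 52.4%.

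Seen from the Ets1 promoter, MEFs had more contact around Gm31871 and with parts of Ets1. ES cells had more contact with parts of Fli1 and with the sequence just beside it. They also had more counts in 2 windows next to the viewpoint window, within the 20 kb left out of the local maxima. Whether counts so close to the bait measure contact was not tested. Of the 286 windows, 61 were called: 22 were higher in ES cells and 39 were higher in MEFs. These are 7.69% and 13.6% of the interval, while the background over all tested windows was 15.4% for ES-higher calls and 24.0% for MEF-higher calls. Called windows were thus less frequent here than in the table as a whole, in either direction, a difference that was not tested. Both ES libraries lay above both MEF libraries in 87 windows and below them in 94, with overlap in 105, while over all tested windows the ES libraries lay above in 27.9% and the MEF libraries in 44.7%. The median difference was 0.02 in the interval and -0.20 over all tested windows.

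**Figure D1:**
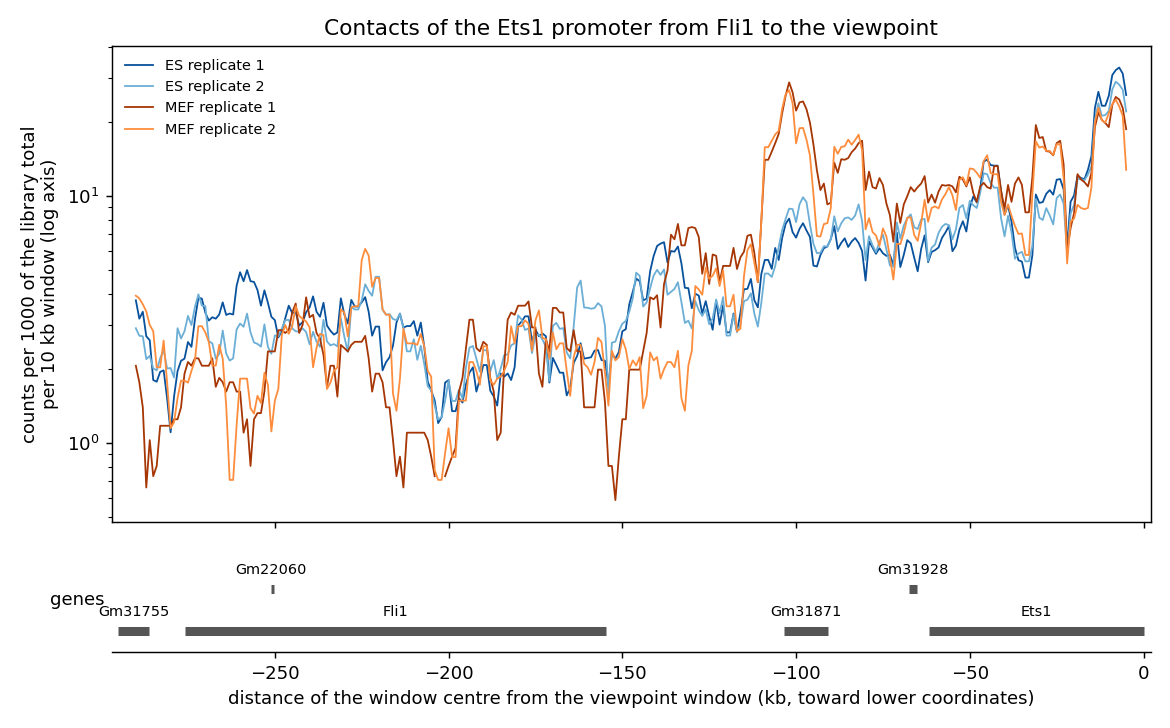
Contact level of each 10 kb window (log axis, counts per 1000 of the library total) against the distance of the window centre from the viewpoint window in kb, 1 line per library, with the genes drawn to scale underneath. Both MEF lines rise to 28.8 and 26.8 over the start of Gm31871, where the ES lines stay at 8.10 and 8.88; a gap in the line of MEF replicate 1 marks windows without counts.

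The balance of the calls depended on the scaling of the libraries. The 22 ES-higher and 39 MEF-higher calls changed to 33 and 30 when libraries were centred on their medians, to 43 and 9 under quantile normalization, and to 24 and 15 after correction for distance. They became 11 and 59 after rescaling without 50 kb around the viewpoint. edgeR on the recovered counts called 35 and 28. The median differences of the interval and of all tested windows also depended on scaling. They were 0.18 and -0.04 with median centring, and 0.26 and 0.02 with quantile normalization. After rescaling without 50 kb around the viewpoint they were -0.05 and -0.19. Leaving out single libraries also changed the counts. Such a fit has 1 library in a group, so the spread between replicates comes from the remaining pair alone. That pair is of MEFs when an ES library is left out, and of ES cells when a MEF library is. A call gained or lost there does not by itself show that 1 library carried a difference. Without ES replicate 1 limma called 0 ES-higher windows (4 at an unadjusted p under 0.05) and 24 MEF-higher ones. Without ES replicate 2 the counts were 4 and 25, without MEF replicate 1 they were 38 and 42, and without MEF replicate 2 they were 55 and 82.

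**Figure D2:**
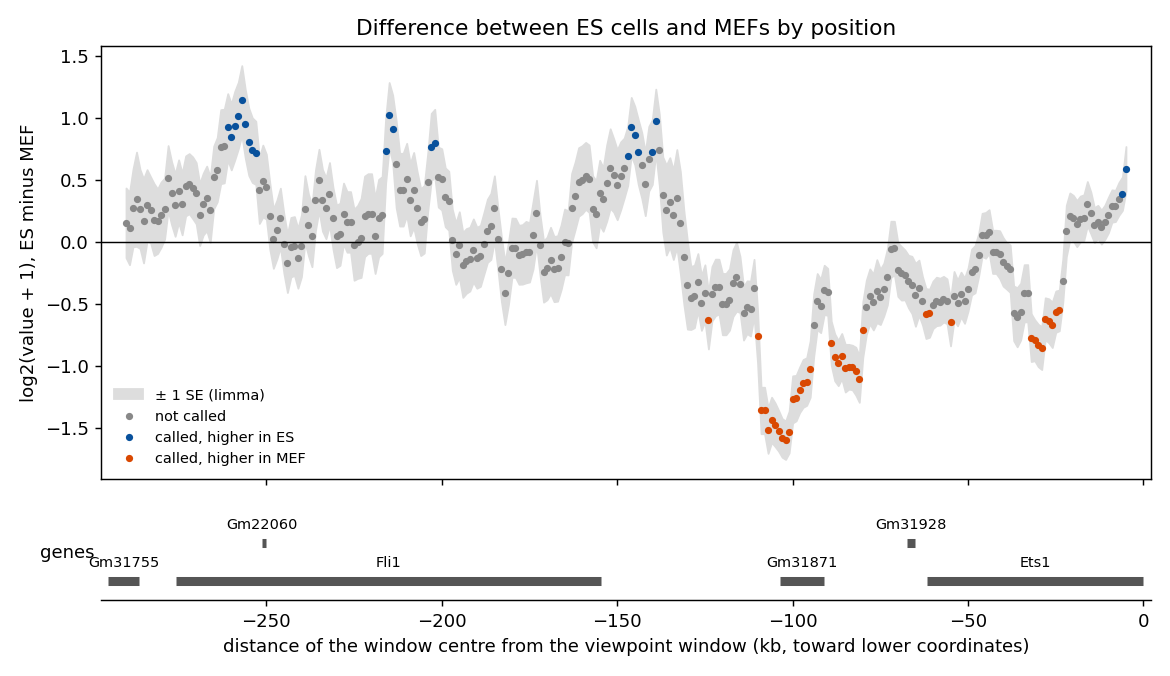
Difference of each window (log2(value + 1), ES minus MEF, with a band of 1 SE from limma) against the distance of its centre from the viewpoint window in kb. Joined where they lie up to 20 kb apart, the called windows form 4 ES-higher groups and 1 long MEF-higher stretch. The 39 called windows of that stretch are not continuous, and its lowest point, -1.60, lies over the start of Gm31871.

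At Gm31871 the peak of the difference was the window from 32591001 to 32601000, 97 kb from the viewpoint window, which contains the annotated start of the gene. It held 8.10 and 8.88 counts per 1000 in ES replicates 1 and 2, against 28.8 and 26.8 in the MEF replicates. Both MEF libraries stood far above both ES libraries, with a mean 3.28-fold higher. The values rest on 572 and 1838 counts in the ES libraries against 393 and 794 in the MEF libraries. The difference was -1.60 (SE 0.15, limma adjusted p = 0.000152), and it was called in MEFs under every alternative in which the window was tested.

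The same window was the highest of each MEF library beyond 20 kb from the viewpoint window. In ES cells the highest was elsewhere, at 32648001 to 32658000 in replicate 1 (14.0 per 1000) and at 32647001 to 32657000 in replicate 2 (12.4 per 1000), both within Ets1. Measured against the median of interval windows within 50 kb, a ratio that needs no scaling between libraries, the Gm31871 window reached 1.41 and 1.62 times that median in the ES libraries, against 3.07 and 3.89 times in the MEF libraries. A local rise was thus present in all 4 libraries and was larger in both MEF libraries. In ES cells the second-highest local maximum of the interval lay close by, at 32595001 to 32605000, with 7.76 and 9.88 per 1000 in the ES libraries against 24.1 and 18.9 in the MEF libraries.

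Of the 23 windows that overlapped Gm31871, 18 (78.3%, against 24.0% of all tested windows) were called higher in MEFs, with differences from -0.39 to -1.60 over all 23. In each of the 23 both MEF libraries lay above both ES libraries, against 44.7% of all tested windows. The 23 windows overlap each other and are not separate observations. edgeR also called 18 of them, quantile normalization left 8 and the distance correction 13. The Gm31871 locus (gene and 10 kb of flank at either end) averaged 5.85 and 6.40 counts per 1000 per window in the ES libraries against 14.1 and 12.6 in the MEF libraries. The groups did not overlap, and the difference was -1.01 (SE 0.10, limma adjusted p = 0.00176). Of all 13 gene loci tested on the chromosome, 92.3% were called, 53.8% as higher in ES cells and 38.5% as higher in MEFs. A call alone thus does not set this or any other locus of the interval apart.

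The excess in MEFs around Gm31871 changed in large steps between neighbouring windows. Because windows are 10 kb wide and step by 1 kb, a short stretch raises every window that holds it and then drops out. Such a rise and fall place a stretch and are not the edges of a block of contact. A change from a window to the next comes from fragments that reach into the 1 kb gained or the 1 kb lost. The largest rise in MEFs beyond 20 kb from the viewpoint occurred where the window gained 32593001 to 32594000, which ends 0.5 kb before the start of Gm31871. There MEF replicate 1 rose from 7.85 to 14.0 per 1000 and MEF replicate 2 from 7.90 to 15.8, while ES replicates 1 and 2 rose from 4.83 to 5.51 and from 3.70 to 4.85. After 9 windows, where 32592001 to 32593000 was lost, the MEF values fell by 4.11 and 7.39, to 22.2 and 16.3. Further rises followed within the gene, where windows gained 32598001 to 32600000. A second rise of this kind began where the window gained 32613001 to 32614000, which lies 5.9 kb past the end of Gm31871 and overlaps no gene. There MEF replicate 1 rose from 9.39 to 13.6 and MEF replicate 2 from 8.94 to 15.8, and ES replicates 1 and 2 from 6.70 to 7.55 and from 6.67 to 8.28. It ended after 9 windows, where 32612001 to 32613000 was lost and MEF values went from 16.7 to 10.6 in replicate 1 and from 15.3 to 7.32 in replicate 2. Between them the difference was smallest over the gene at 32602001 to 32612000 (6.24 in both ES libraries, 9.24 and 7.76 in MEFs), where it was not called (limma adjusted p = 0.137). Of the 23 windows over the gene, the 5 that were not called lie side by side here, from 32599001 to 32613000.

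Over Gm31928, between Gm31871 and Ets1, MEFs averaged higher but with little support from single windows. Only 2 of its 12 windows were called, both in MEFs, which is 16.7% against the 24.0% of all tested windows. The Gm31928 locus held 6.21 and 7.17 per 1000 in the ES libraries against 10.8 and 8.73 in the MEF libraries, a difference of -0.48 (SE 0.13, limma adjusted p = 0.0292). The groups did not overlap, but ES replicate 2 and MEF replicate 2 lay closer together than the MEF replicates did. This call ended in 10 of 18 alternatives, among them edgeR (adjusted p = 0.211), median centring (0.0606), the distance correction (0.951) and the gene body alone (0.11). It also ended when ES replicate 1 (difference -0.39), ES replicate 2 (-0.57) or MEF replicate 1 (-0.34) was left out. With quantile normalization the call ended and the direction turned, to 0.14 (adjusted p = 0.166). With its flanks the Gm31928 locus shares windows with the Gm31871 locus, among them 32612001 to 32622000. That window held 5.99 and 7.91 per 1000 in the ES libraries against 16.7 and 15.3 in the MEF libraries. The Gm31928 locus call is thus not separate from the excess beside Gm31871. In the ES libraries the Gm31871 locus stood at 0.94 and 0.89 times the Gm31928 locus of the same library. In the MEF libraries it stood at 1.30 and 1.45 times. Because the loci share windows, this ratio does not set separate stretches against each other. The 2 groups do not overlap in this ratio, and an exact two-sided permutation test gave p = 0.333, the smallest that 2 against 2 libraries allow.

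**Figure D3:**
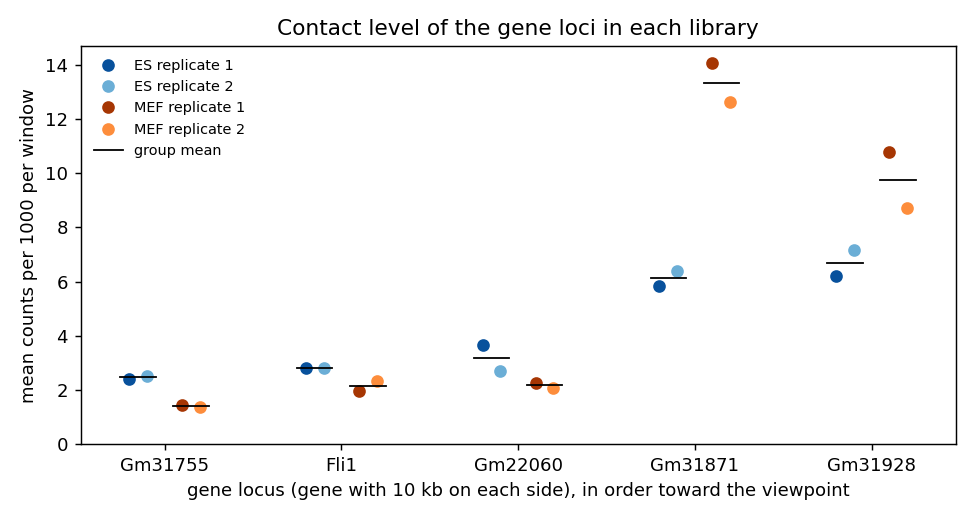
Mean contact level per 10 kb window of the 5 gene loci (gene with 10 kb on each side, counts per 1000), 1 point per library with the mean of each group as a bar. ES points lie above MEF points at Gm31755, Fli1 and Gm22060, and below them at Gm31871 and Gm31928. The Gm31871 and Gm31928 loci share windows, as do those of Fli1 and Gm22060.

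Within the part of Ets1 before the viewpoint, 62 windows were examined, of which 12 were called higher in MEFs and 2 higher in ES cells. These are 19.4% and 3.23%, below the 24.0% and 15.4% of all tested windows. The 10 windows that cover the outer end of the gene, where its annotation begins, averaged 6.10 and 7.12 per 1000 in the ES libraries against 10.6 and 8.56 in the MEF libraries. Both MEF libraries lay above both ES libraries in 7 of the 10, an order found in 44.7% of all tested windows. As higher in MEFs, limma called 2 of the 10, against 24.0% of all tested windows, and edgeR called 0 (0 at an unadjusted p under 0.05). A local maximum at 32648001 to 32658000, 40 kb from the viewpoint window, was the highest of ES cells: the ES libraries held 14.0 and 12.2 per 1000 against 10.9 and 14.6 for MEFs. The libraries overlapped, and the difference of 0.05 (SE 0.18) was not called (limma adjusted p = 0.826). A second maximum, at 32662001 to 32672000, held 10.1 and 9.72 in the ES libraries against 19.4 and 16.6 in the MEF libraries, with both MEF libraries above both ES libraries. Its difference was -0.79 (SE 0.17, limma adjusted p = 0.00437), and this call ended with quantile normalization (0.49), distance correction (0.138) and thinning to the shallowest library (0.0515). Relative to the first maximum in the same library, this window stood at 0.72 and 0.79 in the ES libraries, against 1.78 and 1.14 in the MEF libraries. Its rise came mostly in 1 step, where the window gained 32671001 to 32672000. MEFs rose there by 7.48 and 6.51 per 1000, and ES cells rose by 4.39 and 3.45 in the largest step of the ES mean beyond 20 kb.

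Next to the viewpoint the direction changed again. The last MEF-higher call began at 32669001, and 18 kb on, at 32687001 to 32697000, the ES libraries held 31.3 and 26.9 per 1000 against 22.7 and 21.1 for MEFs. The window that touches the viewpoint window, 32688001 to 32698000, held 25.6 and 22.0 in the ES libraries against 18.6 and 12.8 in the MEF libraries. ES libraries lay above MEF libraries, but the MEF replicates lay further apart than the lower ES and the higher MEF library did. Its difference was 0.59 (SE 0.18, limma adjusted p = 0.0221). That call ended in 7 alternatives, among them a limma fit with no trend (adjusted p = 0.0882) and a test limited to non-overlapping windows (0.0617). Omission of ES replicate 1 (difference 0.48) and of ES replicate 2 (0.70) were also among the 7.

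Between Fli1 and Gm31871 the direction reversed over 15 kb. On the Fli1 side, 6 windows from 32546001 to 32564000, starting 2.6 kb past the end of Fli1, were called higher in ES cells. The window of smallest p, 32547001 to 32557000, held 4.63 and 4.89 counts per 1000 in the ES libraries against 1.98 and 2.06 in the MEF libraries. Replicates lay close together and the groups were 2.36-fold apart, with a difference of 0.93 (SE 0.24, limma adjusted p = 0.0106). The call ended when ES replicate 1 (difference 0.96, SE 0.43) or ES replicate 2 (0.90, SE 0.44) was left out. This window rests on 27 and 61 counts in MEFs, against 327 and 1012 in ES cells. Relative to the median within 50 kb it stood at 1.49 in both ES libraries and at 0.56 and 0.82 in MEFs, so it was a local rise in ES cells and below the local median in MEFs.

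The third-highest local maximum of ES cells lay in this stretch, at 32555001 to 32565000, with 6.50 and 5.04 for ES libraries and 4.40 and 1.99 for MEF libraries. Its difference of 0.74 (SE 0.29) was not called (limma adjusted p = 0.0576), although 8 alternatives called it. The last ES-higher call, at 32554001 to 32564000, held 6.41 and 4.79 in the ES libraries against 2.93 and 1.82 in the MEF libraries. The next called window, at 32569001 to 32579000, held 2.87 and 3.19 in the ES libraries against 5.80 and 4.76 in the MEF libraries. The difference thus went from 0.98 to -0.63 between 2 called windows that share no sequence. The MEF libraries disagreed between them: at 32558001 to 32568000, MEF replicate 1 held 6.68 and MEF replicate 2 held 2.02 per 1000, which span both ES values (5.95 and 4.21).

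Across Fli1, ES cells averaged more contact than MEFs. Of the 131 windows that overlapped the gene, 14 were called higher in ES cells, which at 10.7% is below the 15.4% of all tested windows. None was called higher in MEFs by limma or edgeR (0 at an unadjusted p under 0.05 with either). Both ES libraries lay above both MEF libraries in 59 of the 131 windows, below in 6, and overlapped with them in 66. These are 45.0% above and 4.58% below, against 27.9% and 44.7% of all tested windows. The Fli1 locus held 2.81 and 2.80 counts per 1000 per window in the ES libraries against 1.98 and 2.35 in the MEF libraries, a difference of 0.27 (SE 0.08, limma adjusted p = 0.0316). Replicates of ES cells nearly coincided and both MEF libraries were lower. With its flanks the locus also takes in windows beside Fli1, among them ES-higher calls such as 32547001 to 32557000. For the gene body alone the difference was 0.24 and was not called (limma adjusted p = 0.11). The locus was called in 10 of 18 alternatives, and not when ES replicate 1 or ES replicate 2 was left out, where the difference stayed at 0.27.

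The calls over Fli1 formed 2 groups. The first, 9 windows from 32432001 to 32450000, includes Gm22060. At its window of smallest p, 32436001 to 32446000, the ES libraries held 4.52 and 2.80 per 1000 against 0.807 and 1.38 for MEFs. ES libraries were higher, with a 3.34-fold difference in means, although in counts per 1000 the ES replicates lay further apart than the MEF replicates did. The difference of 1.14 (SE 0.28, limma adjusted p = 0.00958) rests on 11 and 41 counts in MEFs, and without ES replicate 1 it was 0.87 and not called. The second group, 5 windows from 32477001 to 32501000, peaked at 32478001 to 32488000 with 3.07 and 3.14 in the ES libraries against 0.734 and 1.35 in the MEF libraries. Here the ES replicates nearly coincided and both MEF libraries were lower, by 2.98-fold in the mean. The difference of 1.02 (SE 0.26, limma adjusted p = 0.0114) lost its call without ES replicate 1 or ES replicate 2, where it was 1.04 and 1.01. The second group includes the lowest window of the interval in both groups, 32490001 to 32500000, with 1.20 and 1.24 per 1000 in ES cells, 0.709 in MEF replicate 2 and 0 in MEF replicate 1, where a count of 0 allows up to 0.22 per 1000.

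The highest MEF window of the gene, 32469001 to 32479000, held 2.71 and 6.11 per 1000 in MEFs and 3.89 and 4.39 in ES cells, so that the MEF libraries lay on either side of both ES libraries. Its difference was -0.00079 (SE 0.29, limma adjusted p = 0.999), which does not show that contact was alike. The end of Fli1 nearest the viewpoint, which holds the start of the gene, was covered by 10 windows that averaged 2.27 and 2.98 per 1000 in the ES libraries against 1.25 and 2.20 in the MEF libraries. ES libraries lay above MEF libraries in 7 of the 10, an order found in 27.9% of all tested windows, and overlapped with them in 3. None was called by limma (0 at an unadjusted p under 0.05) or by edgeR (3 ES-higher at an unadjusted p under 0.05). Gm22060, a locus that lies wholly within Fli1 and shares its windows, held 3.64 and 2.71 in the ES libraries against 2.26 and 2.08 in the MEF libraries (difference 0.39, SE 0.13, limma adjusted p = 0.0405). Leaving out ES replicate 1, MEF replicate 1 or MEF replicate 2 ended this call (differences 0.23, 0.43 and 0.35). Testing with no filter (limma adjusted p = 0.174) and thinning to the shallowest library (0.104) ended it too.

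At the outer edge of the interval, 9 windows overlapped Gm31755 and none was called by limma or by edgeR (0 at an unadjusted p under 0.05 with each). Libraries of both groups overlapped in all 9. The whole Gm31755 locus, most of which lies beyond the interval over Kcnj1, a potassium channel gene, held 2.42 and 2.53 per 1000 in the ES libraries against 1.45 and 1.38 in the MEF libraries (difference 0.53, SE 0.06, limma adjusted p = 0.00176). Thinning to the shallowest library ended this call (0.40, adjusted p = 0.0783).

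The replicates set the limits of these comparisons. Over the 29 windows of the interval that do not overlap, ES replicates differed from each other by a median of 1.15-fold and at most 1.65-fold, and MEF replicates by a median of 1.31-fold and at most 3.86-fold. Both pairs differed by more than counting error (chi-square 305 and 217 on 28 degrees of freedom, p = 2.42e-48 and 4.94e-31). Among all 286 windows, ES replicates differed by over 2-fold in 0 and MEF replicates in 42, of which 26 overlapped Fli1 and 3 were called. The MEF libraries were also the shallower ones.

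Summed over the 29 windows, the interval held 16.0% (95% Wilson interval 15.8 to 16.3) and 15.7% (15.6 to 15.9) of the library total in ES replicates 1 and 2. In MEFs it held 19.5% (18.8 to 20.2) and 17.6% (17.2 to 18.1). Both MEF libraries lay above both ES libraries (exact two-sided permutation p = 0.333, the smallest possible). Such intervals cover counting error only. The sums are approximate, because the windows could not be written as sums of 1 kb bins with counts of at least 0.

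The makeup of the interval also differed. Windows centred on Fli1 held 22.2% and 22.0% of the counts of the interval in the ES libraries, against 12.7% and 16.3% in the MEF libraries. Windows between Fli1 and Gm31871, whose last one covers the start of Gm31871, held 14.6% and 14.0% in the ES libraries, against 18.9% and 18.1% in the MEF libraries. That last window held 389 of 1654 and 1288 of 4542 counts of the segment in the ES libraries, against 243 of 502 and 544 of 947 in the MEF libraries. The window of the segment nearest Fli1, 32548001 to 32558000, was higher in ES cells. The excess of the segment in MEFs thus does not describe the stretch without a gene. The 1 window centred on Gm31871 held 3.26% and 4.07% in the ES libraries, against 8.28% and 5.77% in the MEF libraries. In these 3 segments the groups did not overlap (exact two-sided permutation p = 0.333 each, the smallest possible). The 90 kb next to the viewpoint held 58.8% and 58.7% in the ES libraries, against 59.8% and 58.1% in the MEF libraries, values that overlap. That share pools windows called in either direction. Within each library the Gm31871 locus stood at 2.08 and 2.29 times the Fli1 locus in the ES libraries, against 7.10 and 5.37 times in the MEF libraries.

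Compared with the same distances on the other side of the viewpoint, ES cells were even and MEFs were not. The counts of the interval over those of the other side were 1.00 in both ES libraries, and 0.858 and 0.749 in MEFs (exact two-sided permutation p = 0.333, the smallest possible). Of 286 windows listed there, 283 were tested. By limma 106 (37.1% of the 286) were called higher in MEFs and 0 higher in ES cells, against 24.0% and 15.4% of all tested windows. There was 1 ES-higher window at an unadjusted limma p under 0.05. edgeR also called 0 windows of the other side higher in ES cells (11 at an unadjusted p under 0.05). With the scaling as reported, the median difference was -0.42 there and 0.02 in the interval. At these distances the ES-higher calls of limma and edgeR thus all lay on the Fli1 side.

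**Figure D4:**
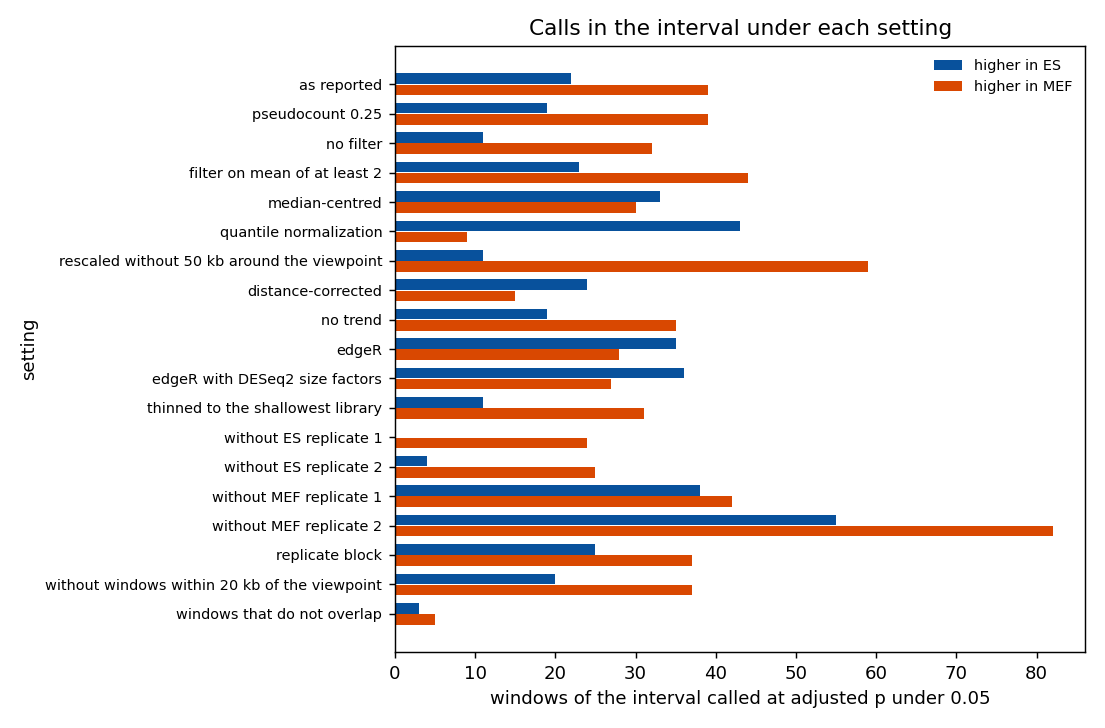
Number of windows of the interval called at an adjusted p under 0.05, higher in ES cells or higher in MEFs, as reported and under each alternative. The ES-higher count runs from 0 without ES replicate 1 to 55 without MEF replicate 2, and the MEF-higher count from 5 among windows that do not overlap to 82 without MEF replicate 2.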

How the data were processed

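Per the labels' protocols, DpnII was the first and Csp6I the second cutter of the fixed chromatin. Bowtie 1.0.0, edgeR and mm10 are named, with no role, in the submitters' processing notes, and for the counting of windows the method was not given in the sources used here. Values of the deposited table are CPM by name, but each value is a whole multiple of 1 step (100% of values, tolerance 0.01 count) and 1000 divided by that step is a whole number, so values are read as counts per 1000 of a library total. That scale is worked out from the values. Only windows with counts in 3 or more of the 4 libraries are listed, and others were not analysed here. Windows are printed 1-based.

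Groups come from the sample titles. The test between ES and MEF libraries was limma's (version 3.58.1, R 4.3.3; lmFit and eBayes, variance trend on the mean), two-sided, on log2(value + 1). The recovered counts were tested with edgeR 4.0.16 (quasi-likelihood; TMM, or DESeq2 1.42.0 size factors) as an alternative. Gene loci use RefSeq genes of GRCm38.p6. Loci that reach the viewpoint window, such as Ets1, were not tested as loci. The fits were tested on simulated data. Alternatives changed the pseudocount, filter, scaling, distance correction, trend, depth, flank, window overlap and replicate block, or omitted a library with the windows of the main test kept.

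Named are all genes of the interval, runs of called windows of 1 direction (up to 20 kb apart) by their window of smallest p, the 3 highest local maxima per group (above all windows within 15 kb), and the changes of direction. Steps between neighbouring windows, and windows singled out beside these, were chosen after their values were seen. The interval and these rules were chosen with earlier results of these data known.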

Additional observations from a re-analysis of the deposited data

How the results depend on the processing

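The Gm31871 locus was called higher in MEFs in all 18 alternatives run. The ES-higher window count of 22 was 11 without a filter, 43 with quantile normalization, 11 after rescaling without 50 kb around the viewpoint, 35 with edgeR, 36 with edgeR and DESeq2 size factors, 11 after thinning to the shallowest library and 3 among windows that do not overlap, and ran from 0 to 55 with 1 library left out. The MEF-higher count of 39 was 9 with quantile normalization, 59 after that rescaling, 15 after distance correction and 5 among windows that do not overlap, and ran from 24 to 82 with 1 library left out. Windows that do not overlap are fewer by construction; the cause of the remaining changes was not tested. Quantile normalization turned the sign of 6 called windows between 32631001 and 32679000, all called in MEFs, and of the Gm31928 locus (0.14). The Fli1 call ended without a filter (difference 0.27, adjusted p = 0.434), with a filter on a mean of at least 2 (0.27, 0.0502), after rescaling without 50 kb around the viewpoint (0.22, 0.0623), after thinning (0.26, 0.225) and for the gene body alone (0.24, 0.11). With 1 library left out its difference ran from 0.18 to 0.35. The ES over MEF ratio of the share of the interval was 0.856, and 0.713 without 50 kb around the viewpoint. For the segment between Gm31871 and the viewpoint this ratio was 0.853, and 0.554 without 50 kb around the viewpoint. The same ratio for the segment between Fli1 and Gm31871 went from 0.66 to 0.847 when windows were shifted by 5 kb.

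Replicate numbers are shared between groups but no source pairs them. The differences between replicates 1 and 2 of ES cells and of MEFs correlated at r = -0.01 over tested windows and 0.15 over the windows of the interval. With the replicate block 25 windows were ES-higher and 37 MEF-higher, the Fli1 call ended (0.27, adjusted p = 0.0959), as did that of Gm31928 (adjusted p = 0.0536). Depth limits MEF values most: 3 counts are 0.22 per 1000 in MEF replicate 1.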
